A study of Mus musculus with 2 samples.

Results

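The nuclear-encoded genes of the mitochondrial respiratory chain were followed through the cell types of the lung after a sham operation and after hepatic ischemia-reperfusion (HIR), in which blood flow to the liver is interrupted and then restored. Members were chosen by symbol: names that start with Ndufa, Ndufb, Ndufc, Ndufs, Ndufv, Sdh, Uqcr, Atp5 or Cox4 to Cox8, without Cox4i2 and without the genes carried by mitochondrial DNA. This rule took 101 of the 32883 features of the table, under 97 symbols, of which 4 (Cox6b1, Ndufa10l1, Ndufv3 and Uqcrb) belong to more than 1 gene identifier. They comprise 38 subunits of complex I, 4 of complex II, 9 of complex III, 19 of complex IV and 16 of complex V, with 12 assembly factors, the ATP synthase inhibitor Atp5if1, the supercomplex factor Cox7a2l and the pseudogene Cox6c-ps1. The samples were primary lung cells of wild type mice, with 1 library from sham-operated animals and 1 library from animals after HIR, labelled 6 hours. The labels used here do not give strain, age, sex or the number of animals pooled in a library. With 1 library in each group, library and condition cannot be told apart, no test was possible, and each difference is a description of these libraries.

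Oxidative phosphorylation runs on 5 protein complexes of the inner mitochondrial membrane. Complexes I and II pass electrons from NADH and succinate to ubiquinone, complex III hands them on to cytochrome c, and complex IV passes them to oxygen. Complexes I, III and IV pump protons as they do so, and complex V, the ATP synthase, uses the proton gradient to make ATP. A few subunits are encoded by mitochondrial DNA, and the rest are encoded in the nucleus, made in the cytosol and imported. In the lung, alveolar type 2 cells are known to be rich in mitochondria, and mature neutrophils are known for making most of their ATP by glycolysis.

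Promoters of nuclear respiratory genes are known for sites of NRF1, of ETS-family factors such as GABP, and of YY1. These motifs were searched in the mouse RefSeq promoters (build GRCm38.p6, 250 bases before to 50 after the start), which could be matched for 78 of the 97 symbols. The feature table carries rat identifiers, and rat promoters were not used here. A gene was counted when any of its promoters held the motif. The NRF1 motif CGCATGCG, which reads the same on both strands, was present in 11 of the 78 matched genes (14.1%), against 2.07% of all 27025 genes with such promoters. The ETS motif CCGGAAG, on either strand, was present in 22 (28.2%), against 9.93% of all. The YY1 motif AAGATGGC, on either strand, was present in 11 (14.1%), against 3.19% of all, and any of the 3 was present in 37 (47.4%), against 14.1%. The end of the ETS motif and the start of the YY1 motif share the letters AAG, so a promoter can hold both on overlapping bases. The windows shown are from members on which the results below turn, with the motif in capitals and the strand of the gene.
Ndufaf8, ETS motif, chr11:120098915-120098943, plus strand: cgcgttcgactCCGGAAGaggcagggccc
Ndufaf8, YY1 motif, chr11:120098933-120098962, plus strand: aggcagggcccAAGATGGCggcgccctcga
Ndufa3, YY1 motif, chr7:3617384-3617413, plus strand: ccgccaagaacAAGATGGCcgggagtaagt
Uqcr11, NRF1 motif, chr10:80406808-80406837, minus strand: gatcgccttcaCGCATGCGctatacgtctg
Atp5me (Atp5k in RefSeq), NRF1 motif, chr5:108434430-108434459, minus strand: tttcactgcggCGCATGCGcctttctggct
In Ndufaf8 the ETS and YY1 windows overlap, and the YY1 motif begins 10 bases downstream of the start site. A match describes the letters of a window and says nothing of whether a factor was bound.

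The sham library held 10719 cell barcodes and 59566745 UMIs (unique molecular identifiers, each 1 counted RNA molecule), and the HIR library 9499 barcodes and 50801778 UMIs, with 24 barcode sequences present in both. Cells were gated by marker genes, and 15 classes had at least 100 cells in each library, in all 6394 sham and 6268 HIR cells. Class names carry the suffix -like because they rest on marker genes. A pair of classes stayed unnamed and is called by its genes. The Lum and Wnt11 stroma was gated on 3 listed genes, and 95.1% of its sham cells and 97.0% of its HIR cells met only the minimum of 2 of them. In the Vcan and Fn1 myeloid cells, 100% and 99.7% of cells stood at that minimum, and the monocyte gene F13a1 was at 0 and 6 UMIs. RNA of the neutrophil marker list was also present in other classes and was higher there in the HIR library, for example 33.6 and 393 CPM in the adventitial fibroblast-like class.

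Over all cells the members took 2.08% of UMIs in the sham library and 2.002% in the HIR library. Their share ran over a wider range between cell types than between libraries. In the sham library it ran from 0.839% in neutrophil-like cells to 2.96% in alveolar type 1 epithelium-like cells, the thin cells across which gas diffuses, and 2.94% in the smooth muscle or myofibroblast-like class. The share was lower in the HIR library in 11 of the 15 classes by summed UMIs and higher in 4. It was 2.32% in sham and 1.86% in HIR in the Lum and Wnt11 stroma, a ratio of 0.803 (exact 95% interval 0.792 to 0.815; all intervals here cover counting error only). In alveolar type 1 epithelium-like cells it was 2.96% and 2.43%, a ratio of 0.821 (0.802 to 0.840). In the adventitial fibroblast-like class, the fibroblasts of vessel and airway sheaths, it was 1.88% and 1.59%, a ratio of 0.847 (0.831 to 0.862). These were the 3 classes with the lowest ratios, followed by smooth muscle or myofibroblast-like cells at 0.876 (0.865 to 0.887). The higher values in HIR were those of neutrophil-like cells, 0.839% and 0.991%, of Vcan and Fn1 myeloid cells, 1.88% and 2.14%, of alveolar macrophage-like cells, 2.59% and 2.71%, and of alveolar type 2 epithelium-like cells, 1.83% and 1.86%.

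**Figure D1:**
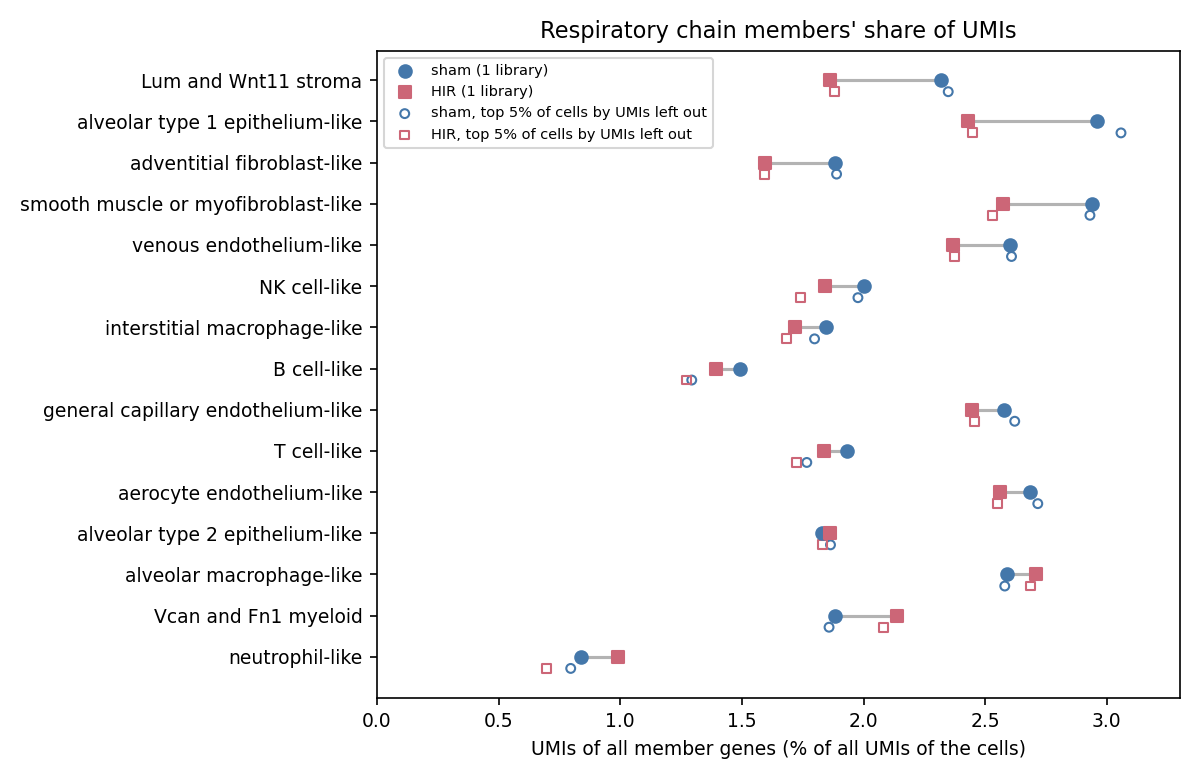
Share of all UMIs taken by the 101 members (x axis, percent) in each of the 15 classes (y axis), for the sham library (circles) and the HIR library (squares). Open symbols leave out the 5% of cells with the most UMIs of each class and library: the order of the libraries is then kept except in neutrophil-like cells, where it becomes 0.796% and 0.696%, and in alveolar type 2 epithelium-like cells.

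A member was counted as measured in a class when it had at least 20 CPM (UMIs per 1000000 UMIs of the class) in sham or in HIR and a total of 50 or more UMIs. By this rule 71 members were measured in all 15 classes, 12 in some and 18 in none, which gave 1170 pairs of a member and a class. Of these, 50 (4.27%) were more than 1.5-fold lower in HIR and 28 (2.39%) more than 1.5-fold higher. Over all 71996 pairs of a measured gene and a class the shares were 7.75% and 8.33%, so that members were past the fold in smaller shares than genes at large in both directions. The genes at large were not matched to the members for expression level, and the part of level in these shares was not tested. The lower pairs lay mostly in 3 classes, with 34 of the 50 in the Lum and Wnt11 stroma, adventitial fibroblast-like and alveolar type 1 epithelium-like cells. Of the 5582 lower pairs of all genes, 448, 637 and 248 lay in these classes. The higher pairs lay almost wholly in neutrophil-like and Vcan and Fn1 myeloid cells, with 27 of the 28. For all genes, 788 and 643 of the 5999 higher pairs lay there. Of the 83 members measured in any class, 38 were past 1.5-fold in none, and the same share of all genes was not counted.

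In the Lum and Wnt11 stroma 75 of the 80 measured members were below a ratio of 1, and the median log2 ratio of HIR over sham was -0.27, against 0.03 for all 5621 genes measured there. There, 14 members were past 1.5-fold lower and 0 higher, where the background over all measured genes was 7.97% lower and 9.98% higher. In the adventitial fibroblast-like class the median was -0.26 against -0.003 for all genes, with 65 of 79 below a ratio of 1 and 13 past the fold lower and 0 higher (background 11.8% lower and 12.2% higher). Alveolar type 1 epithelium-like cells had a median of -0.28 against 0.03, with 68 of 76 below a ratio of 1 and 7 past the fold lower and 0 higher (background 7.84% lower and 11.4% higher). Read against this background, the share of members past the fold lower was above it in the Lum and Wnt11 stroma (17.5%) and the adventitial fibroblast-like class (16.5%) and near it in alveolar type 1 epithelium-like cells (9.21%). What these 3 classes shared was the common direction: 58 of the 76 members measured in all 3 were below a ratio of 1 in all of them. Of all measured genes, 47.1% were below a ratio of 1 in the Lum and Wnt11 stroma. The same share was 50.4% in the adventitial fibroblast-like class and 47.5% in alveolar type 1 epithelium-like cells. The share of all genes below a ratio of 1 in all 3 classes was not counted. Median UMIs per cell were also lower in HIR in the adventitial fibroblast-like class (5357 and 4442) and alveolar type 1 epithelium-like cells (5122 and 3880), but not in the Lum and Wnt11 stroma (2879 and 2933). The part of depth in the difference was not tested.

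In the smooth muscle or myofibroblast-like class 66 of 81 members were below a ratio of 1 with a median of -0.18. Of all genes measured there 45.4% were below a ratio of 1, with a median of 0.04. In this class 3 members were past the fold lower and 0 higher (background 5.09% and 8.5%). Venous endothelium-like cells had a median of -0.16 against -0.03 for all genes, 2 members lower and 0 higher (9.52% and 7.36%). NK cell-like cells had a median of -0.13 against -0.04, 4 lower and 1 higher (10.3% and 7.87%). In the other endothelial classes the members sat close to all genes. The median was -0.07 against -0.02 in the general capillary endothelium-like class, 1 lower and 0 higher (5.78% and 4.68%). It was -0.05 against -0.02 in aerocyte endothelium-like cells, 2 lower and 0 higher (6.85% and 7.34%). In B cell-like cells the median was -0.09 against -0.01 with 1 lower and 0 higher (4.65% and 3.94%). No member was past the fold in T cell-like cells (background 2.79% lower and 5.81% higher), interstitial macrophage-like cells (6.4% and 5.94%), alveolar type 2 epithelium-like cells (2.94% and 7.2%) or alveolar macrophage-like cells (1.64% and 1.82%). Alveolar macrophage-like cells had 63 of 79 members above a ratio of 1 at a median of only 0.08. Of all genes measured there 43.6% were below a ratio of 1, with a median of 0.03. Neutrophil-like cells had a median of 0.23 against 0.03 for all genes, with 19 members higher and 2 lower (22.7% and 17.1%). Vcan and Fn1 myeloid cells had a median of 0.25 against -0.04, with 8 higher and 1 lower (13.9% and 18.6%). With 26.0% of members past the fold higher, neutrophil-like cells were near their background, and Vcan and Fn1 myeloid cells, with 10.4%, were below theirs.

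**Figure D2:**
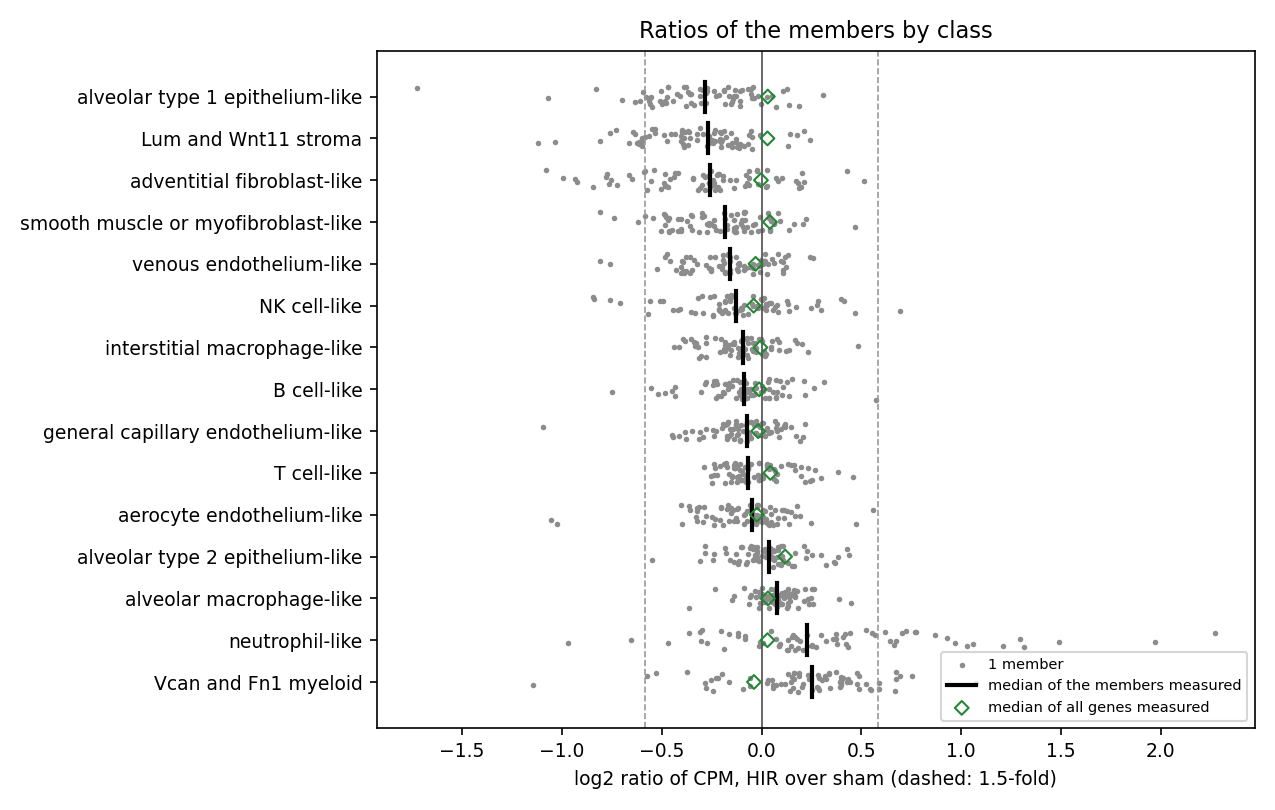
Log2 ratio of CPM, HIR over sham (x axis), of each measured member (points) in each class (y axis), with the members' median (bar), the median of all measured genes (diamond) and 1.5-fold as dashed lines. In alveolar type 1 epithelium-like, Lum and Wnt11 and adventitial fibroblast-like cells the members' medians lie between -0.28 and -0.26 while those of all genes lie near 0, and the widest scatter is in neutrophil-like cells.

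Complex I takes electrons from NADH. Its 7 nuclear core members carry the flavin and iron-sulfur clusters or sit next to them, and its 31 accessory members wrap and stabilise the core. In the Lum and Wnt11 stroma the summed CPM of the accessory members was 5896 in sham and 4665 in HIR (ratio 0.791, 0.769 to 0.814), with 26 of 27 measured members below a ratio of 1. Alveolar type 1 epithelium-like cells had 7502 and 5970 CPM (0.796, 0.760 to 0.833), also with 26 of 27 below. The core members were lower by a smaller margin in both, with ratios of 0.837 (0.781 to 0.898) and 0.871 (0.775 to 0.979). In general capillary endothelium-like cells the core sum was level at 916 and 915 CPM, a ratio of 0.998 (0.959 to 1.04), while the accessory sum was at 0.923 (0.909 to 0.937). The core and accessory parts thus did not run together in every class, and in T cell-like cells the core was at 1.13 (1.04 to 1.23) and the accessory part at 0.968 (0.936 to 0.9998).

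Ndufa3, an accessory subunit at the membrane arm, was the complex I subunit past 1.5-fold lower in all 3 of these stromal and epithelial classes. It was at 144 and 68.7 CPM in alveolar type 1 epithelium-like cells (ratio 0.476, 0.312 to 0.712), 109 and 51.4 CPM in the adventitial fibroblast-like class (0.474, 0.347 to 0.638) and 99.1 and 64.6 CPM in the Lum and Wnt11 stroma (0.653, 0.510 to 0.829). Over the 15 classes its median log2 ratio was -0.31, and it was higher in HIR in neutrophil-like and Vcan and Fn1 myeloid cells. Ndufb6 and Ndufa12, also accessory subunits, had medians of -0.31 and -0.29. Ndufa12 was at 157 and 87.7 CPM in NK cell-like cells and 133 and 84.8 CPM in the Lum and Wnt11 stroma, and Ndufb6 at 98.1 and 60.1 CPM and 93.4 and 60.6 CPM. Ndufa11, which helps to hold the membrane arm together, differed between classes: it was at 448 and 271 CPM in the Lum and Wnt11 stroma and 322 and 169 CPM in the adventitial fibroblast-like class, but 269 and 290 CPM in venous endothelium-like cells. Ndufb10 was below a ratio of 1 in 15 of 15 classes, from 0.616 (0.484 to 0.780) in alveolar type 1 epithelium-like cells, where it was at 344 and 212 CPM, to 0.998 in alveolar macrophage-like cells.

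Other complex I subunits stayed close to their sham level. Among the core members Ndufv1, which binds NADH and flavin, was at 115 and 117 CPM in the adventitial fibroblast-like class, with a ratio of 1.02 (0.813 to 1.28). Ndufv2, a neighbouring iron-sulfur subunit, had a median log2 ratio of 0.14 and was above a ratio of 1 in 12 of 15 classes. By contrast Ndufs8, a core iron-sulfur subunit, was at 161 and 94.9 CPM in the adventitial fibroblast-like class (0.589, 0.467 to 0.737), and Ndufs3, another core subunit, at 165 and 109 CPM in alveolar type 1 epithelium-like cells (0.663, 0.469 to 0.929). The accessory subunits Ndufb11, Ndufb8 and Ndufa13 had ratios of 0.916, 0.904 and 0.850 in the Lum and Wnt11 stroma. Ndufa5 had a median log2 ratio of 0.09, and the Ndufv3 gene ENSRNOG00000001182 one of 0.11. This Ndufv3 was the member past 1.5-fold higher in NK cell-like cells, at 56.4 and 91.3 CPM (1.62, 1.12 to 2.36).

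Complex II, succinate dehydrogenase, belongs to both the citric acid cycle and the chain, and all 4 of its members were measured in every class. In alveolar type 1 epithelium-like cells its sum was 614 and 612 CPM, a ratio of 0.997 (0.855 to 1.16), while complexes I, III, IV and V were at 0.806, 0.819, 0.869 and 0.775 there. The intervals of complexes I and V, 0.772 to 0.841 and 0.740 to 0.811, lie below that of complex II. In the Lum and Wnt11 stroma complex II was at 0.866 (0.780 to 0.961), and in the adventitial fibroblast-like class at 0.825 (0.720 to 0.944), so that it did not stand apart in those classes. Sdha, the flavin-bearing subunit, had a median log2 ratio of 0.11 over the classes and was at 71.4 and 83.1 CPM in the general capillary endothelium-like class (1.16, 1.01 to 1.34). The iron-sulfur subunit Sdhb was at 140 and 100 CPM in the adventitial fibroblast-like class and 197 and 190 CPM in alveolar type 1 epithelium-like cells. The membrane anchors Sdhc and Sdhd were at 149 and 123 CPM and at 161 and 184 CPM in the latter.

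Complex III was at ratios of 0.795 (0.761 to 0.831) in the Lum and Wnt11 stroma, 0.830 (0.785 to 0.876) in the adventitial fibroblast-like class and 0.819 (0.765 to 0.876) in alveolar type 1 epithelium-like cells. Its small subunits and its catalytic iron-sulfur protein differed from each other. Uqcrq, a small subunit next to cytochrome b, had the median log2 ratio of -0.38 over the classes, second only to Ndufaf8 among all members measured in at least 5. It was at 402 and 226 CPM in alveolar type 1 epithelium-like cells (0.563, 0.447 to 0.706), 388 and 258 CPM in the Lum and Wnt11 stroma and 385 and 297 CPM in the general capillary endothelium-like class (0.770, 0.720 to 0.823). Uqcr11, another small subunit, was at 545 and 351 CPM in the Lum and Wnt11 stroma (0.645, 0.582 to 0.714), and Uqcr10 at 367 and 231 CPM in the adventitial fibroblast-like class (0.631, 0.545 to 0.730). Uqcrfs1, the Rieske protein that moves electrons to cytochrome c1, was instead above a ratio of 1 in 11 of 15 classes. It was at 155 and 192 CPM in alveolar type 1 epithelium-like cells (1.24, 0.924 to 1.66), 124 and 124 CPM in the Lum and Wnt11 stroma and 141 and 159 CPM in the general capillary endothelium-like class (1.13, 1.02 to 1.24). Uqcrh, the hinge protein, was near its sham level in most classes, for example 531 and 532 CPM in the smooth muscle or myofibroblast-like class.

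Complex IV, cytochrome c oxidase, showed the same kind of contrast. Cox4i1, the core-adjacent subunit at which ATP is known to regulate the enzyme, was above a ratio of 1 in 11 of 15 classes. It was at 1161 and 1118 CPM in the Lum and Wnt11 stroma (0.963, 0.906 to 1.02), 800 and 909 CPM in the adventitial fibroblast-like class (1.14, 1.05 to 1.23) and 1083 and 1122 CPM in alveolar type 1 epithelium-like cells (1.04, 0.925 to 1.16). In the same Lum and Wnt11 stroma the small subunit Cox7b was at 197 and 96.3 CPM (0.489, 0.403 to 0.590), Cox6c at 1206 and 760 CPM (0.630, 0.588 to 0.675) and Ndufa4 at 566 and 334 CPM (0.590, 0.532 to 0.654). Ndufa4, named for complex I but known as a complex IV subunit, was also at 522 and 305 CPM in the adventitial fibroblast-like class (0.584, 0.515 to 0.662), yet at 1061 and 1042 CPM in the general capillary endothelium-like class. Cox7b was past 1.5-fold lower also in NK cell-like cells, at 404 and 225 CPM, and in the smooth muscle or myofibroblast-like class, at 283 and 169 CPM. Cox7c, a small subunit like Cox7b, was at 626 and 605 CPM in the Lum and Wnt11 stroma, and Cox5a, which faces the matrix, at 154 and 123 CPM. Cox7a2l, which joins complexes III and IV into supercomplexes, was above a ratio of 1 in 11 of 15 classes, with 343 and 392 CPM in the general capillary endothelium-like class (1.14, 1.07 to 1.22), but 546 and 379 CPM in Vcan and Fn1 myeloid cells.

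Complex V was lower in HIR in all measured members of the Lum and Wnt11 stroma (15 of 15, sum ratio 0.800, 0.777 to 0.823) and of alveolar type 1 epithelium-like cells (15 of 15, 0.775, 0.740 to 0.811). Its F1 part was summed over Atp5f1a to Atp5f1e, and so holds the catalytic subunits together with the central stalk. This part was at 0.777 (0.744 to 0.811) in the smooth muscle or myofibroblast-like class, below the peripheral stalk at 0.928 (0.880 to 0.978). The F1 part held the lowest ratio of the complex also in the endothelial classes, at 0.865 (0.843 to 0.888) in general capillary, 0.864 (0.817 to 0.913) in aerocyte and 0.817 (0.775 to 0.861) in venous endothelium-like cells. In the general capillary and venous classes most of that difference lay in Atp5f1e, the small epsilon subunit of the central stalk. Atp5f1e was at 870 and 654 CPM in the general capillary endothelium-like class (0.752, 0.719 to 0.786), 999 and 720 CPM in venous endothelium-like cells and 1182 and 845 CPM in alveolar type 1 epithelium-like cells (0.714, 0.633 to 0.806). The catalytic beta subunit Atp5f1b was at 509 and 519 CPM, 456 and 421 CPM and 672 and 641 CPM in those classes. The alpha subunit Atp5f1a was at 258 and 198 CPM in the Lum and Wnt11 stroma and at 197 and 190 CPM in alveolar type 1 epithelium-like cells.

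In the membrane part, Atp5me, a small subunit at the dimer interface, was at 302 and 200 CPM in the Lum and Wnt11 stroma (0.661, 0.576 to 0.757), 267 and 159 CPM in the adventitial fibroblast-like class (0.593, 0.497 to 0.706) and 395 and 257 CPM in the smooth muscle or myofibroblast-like class (0.650, 0.577 to 0.733). Atp5mg, its neighbour in the dimer, was at 681 and 518 CPM in the Lum and Wnt11 stroma. The c-ring that turns in the membrane is made from 3 genes with the same mature product, and they did not run together. In the adventitial fibroblast-like class Atp5mc1 was at 276 and 176 CPM (0.638, 0.539 to 0.754), Atp5mc2 at 404 and 463 CPM (1.15, 1.02 to 1.28) and Atp5mc3 at 138 and 116 CPM (0.840, 0.675 to 1.04). In general capillary endothelium-like cells the same 3 genes had ratios of 0.735, 0.915 and 1.08. Atp5if1, the inhibitor that blocks ATP hydrolysis by complex V when the proton gradient fails, was higher in HIR in the adventitial fibroblast-like class, at 292 and 393 CPM (1.34, 1.18 to 1.53), and in the smooth muscle or myofibroblast-like class, at 500 and 576 CPM (1.15, 1.05 to 1.26), where complex V itself was lower. In the Lum and Wnt11 stroma it was at 382 and 419 CPM (1.10, 0.991 to 1.22), and in alveolar type 1 epithelium-like cells at 487 and 420 CPM.

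**Figure D3:**
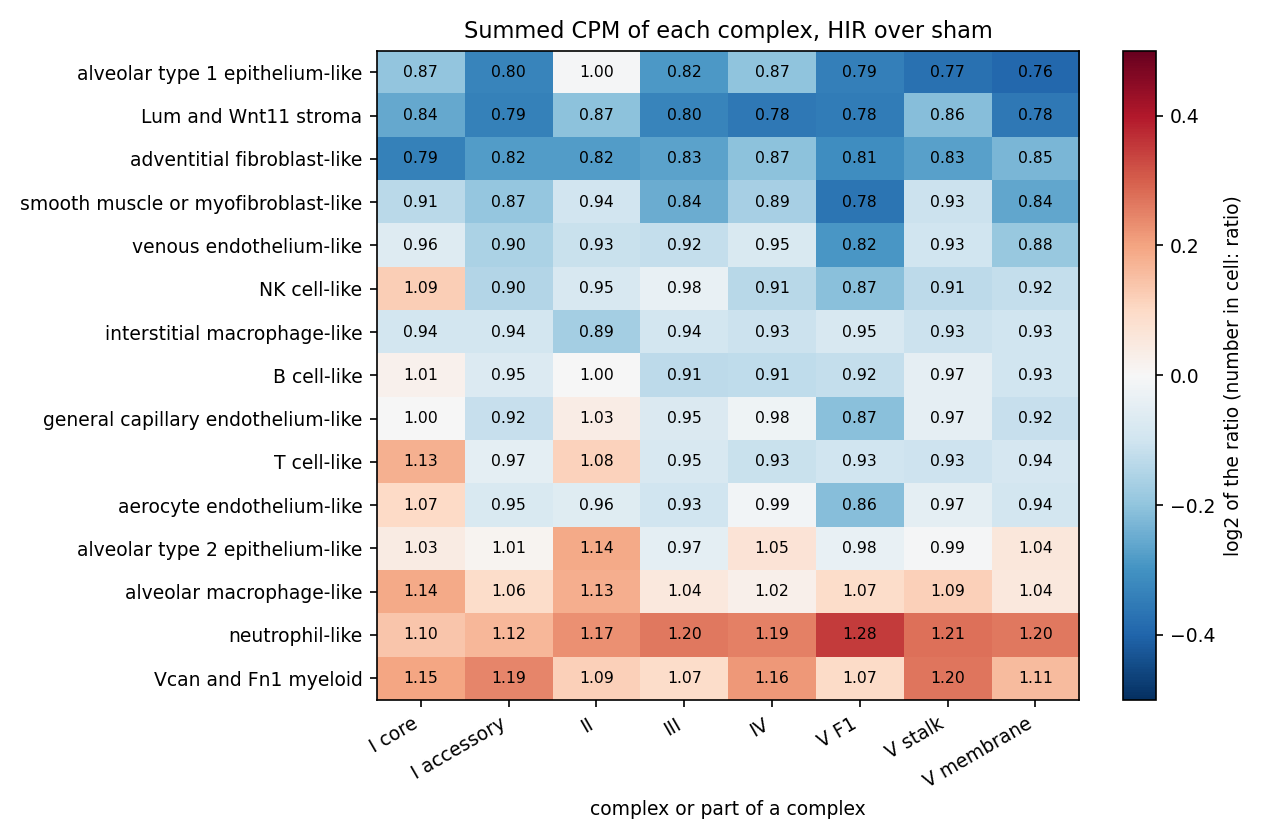
Ratio of summed CPM, HIR over sham, of each complex or part of a complex (columns) in each class (rows), with color on a log2 scale and the ratio printed in each field. The upper rows are below 1 in nearly every column, apart from complex II in alveolar type 1 epithelium-like cells at 0.997, and the F1 part of complex V has the low value of its row in the 3 endothelial classes.

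Assembly factors build the complexes without being part of them. Ndufaf8, known to stabilise the factor Ndufaf5, which modifies Ndufs7 early in complex I assembly, had the lowest median log2 ratio of the members measured in at least 5 classes, -0.65 over 14 classes, with 13 of them below a ratio of 1 and 7 past 1.5-fold lower. In alveolar type 1 epithelium-like cells it was at 86.9 and 26.3 CPM, from 56 and 13 UMIs (0.302, 0.152 to 0.560). General capillary endothelium-like cells, the class with the most cells, gave 66.6 and 31.2 CPM from 428 and 143 UMIs (0.468, 0.385 to 0.567). The Lum and Wnt11 stroma gave 81.8 and 37.7 CPM (0.461, 0.337 to 0.622), the adventitial fibroblast-like class 72.7 and 38.1 CPM (0.524, 0.362 to 0.745), aerocyte endothelium-like cells 76.3 and 36.7 CPM (0.482, 0.322 to 0.709), venous endothelium-like cells 62.5 and 36.9 CPM (0.591, 0.406 to 0.854) and NK cell-like cells 81.2 and 48.1 CPM (0.592, 0.392 to 0.883). In these 7 classes the counting intervals of the ratio all lay below 1. The classes were picked by the same ratio, so this is no separate support. In venous endothelium-like cells the log2 ratio of -0.76 was -0.43 among cells of 1000 to 10000 UMIs and -0.24 as a mean over cells, both short of 1.5-fold. In alveolar macrophage-like cells it was at 61.4 and 55.8 CPM (0.910, 0.794 to 1.04), and in Vcan and Fn1 myeloid cells higher in HIR, at 25.8 and 38.8 CPM (1.502, 0.992 to 2.35).

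The partner Ndufaf5 was measured in 3 classes: 165 and 81.0 CPM in aerocyte endothelium-like cells (0.491, 0.377 to 0.636), 27.1 and 19.9 CPM in the general capillary endothelium-like class (0.733, 0.563 to 0.95) and 15.4 and 21.0 CPM in alveolar macrophage-like cells (1.36, 1.06 to 1.75). In the general capillary and alveolar macrophage-like classes Ndufaf5 reached the minimum of 20 CPM only in the library where it was higher. Ndufs7, the subunit that Ndufaf5 modifies, was at 210 and 243 CPM in the general capillary endothelium-like class (1.15, 1.07 to 1.25). Ndufaf7, a methyltransferase that acts in complex I assembly, went the other way, with a median log2 ratio of 0.18 over 7 classes. It was at 158 and 332 CPM in Vcan and Fn1 myeloid cells (2.11, 1.79 to 2.49) and 30.2 and 69.9 CPM in neutrophil-like cells (2.31, 1.45 to 3.90), against 24.6 and 25.3 CPM in alveolar macrophage-like cells. Sdhaf2, which attaches the flavin to Sdha, was at 35.95 CPM in sham and 33.4 CPM in HIR in the general capillary class and at 34.6 and 47.7 CPM in the smooth muscle or myofibroblast-like class (1.38, 0.988 to 1.93).

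**Figure D4:**
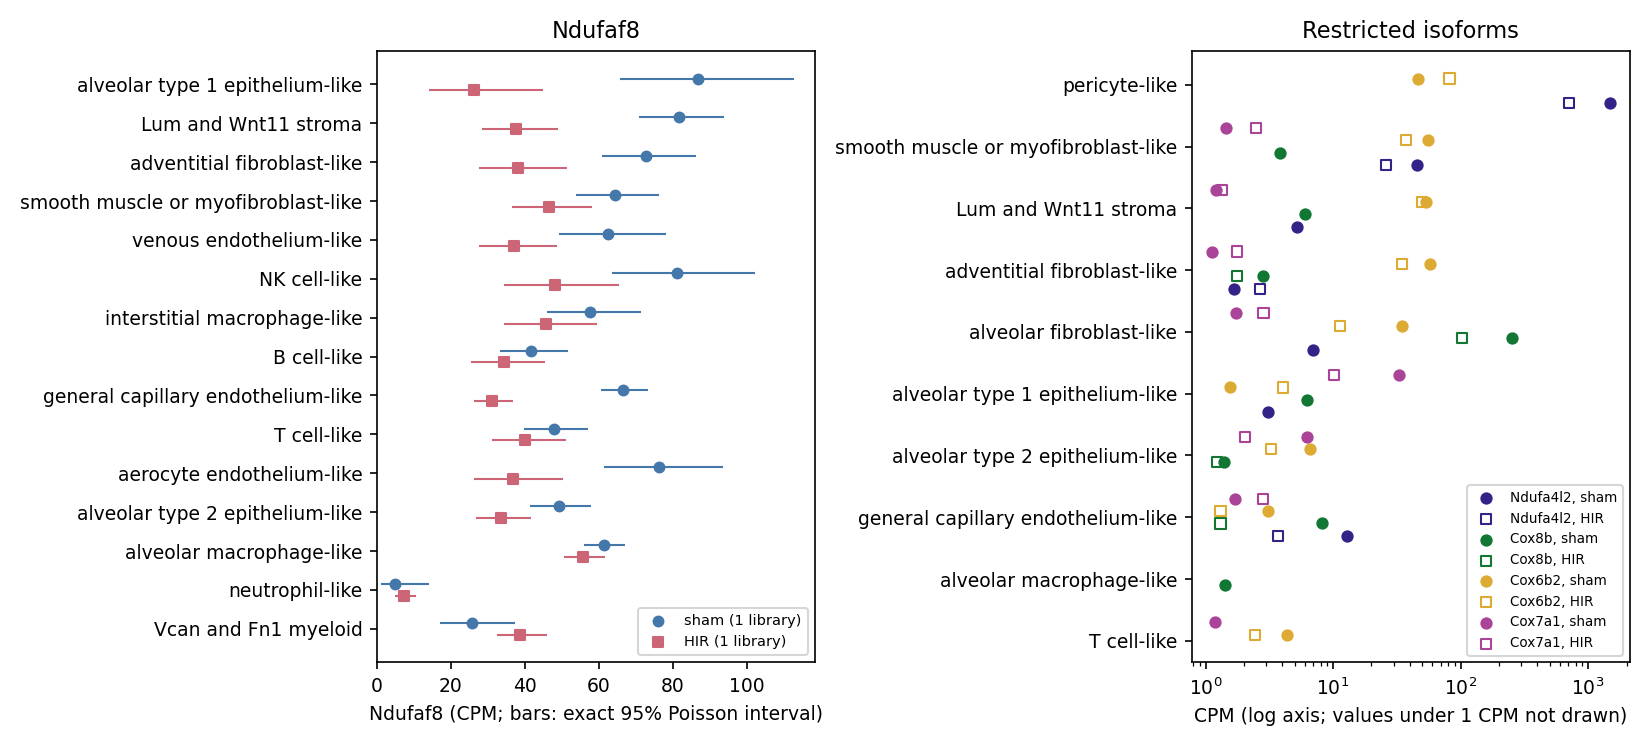
Left, Ndufaf8 in CPM (x axis) by class, sham (circles) and HIR (squares), with exact 95% Poisson intervals of the counts as bars: the HIR value is the lower in each class shown except neutrophil-like and Vcan and Fn1 myeloid cells. Right, the restricted isoforms Ndufa4l2, Cox8b, Cox6b2 and Cox7a1 in CPM on a log axis, filled for sham and open for HIR, with Ndufa4l2 at its maximum in pericyte-like cells (1480 and 710 CPM) and Cox8b in alveolar fibroblast-like cells (251 and 103 CPM).

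Several subunits of complex IV have isoforms that are known to be restricted to certain tissues. Ndufa4l2, the paralog of Ndufa4 that is known to be induced by hypoxia, was measured in 1 compared class, smooth muscle or myofibroblast-like cells, at 45.6 and 26.0 CPM (0.571, 0.387 to 0.829). Its high levels lay in pericyte-like cells, a class too small to compare with 56 and 11 cells, at 1480 and 710 CPM from 256 and 26 UMIs. In general capillary endothelium-like cells it was at 12.9 and 3.71 CPM. Cox8b, the heart and muscle isoform of Cox8a, was at 251 and 103 CPM in alveolar fibroblast-like cells (291 and 36 UMIs; 0.409, 0.281 to 0.579), a class of 221 and 78 cells, and at 9.098 CPM or less in the other gated classes. Cox6b2, known from testis, was a stromal signal here. It was at 57.1 and 34.6 CPM in the adventitial fibroblast-like class (0.606, 0.408 to 0.884), 55.7 and 37.2 CPM in the smooth muscle or myofibroblast-like class and 53.7 and 49.8 CPM in the Lum and Wnt11 stroma. Cox7a1, a muscle isoform, reached 32.6 and 10.1 CPM in alveolar type 1 epithelium-like cells from 21 and 5 UMIs, and Cox6a2, the muscle isoform of Cox6a1, 6.62 and 8.61 CPM in alveolar type 2 epithelium-like cells. Their widely expressed partners were present in every class, and Cox8a was at 754 and 516 CPM in the Lum and Wnt11 stroma (0.684, 0.628 to 0.744) and 766 and 829 CPM in the general capillary endothelium-like class (1.08, 1.04 to 1.13), and Cox6a1 at 374 and 311 CPM and 478 and 433 CPM.

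Neutrophil-like cells numbered 304 in the sham library and 1249 in the HIR library. Their higher sum in HIR lay in a small group of cells. The 63 HIR cells that make up the 5% with the most UMIs (median 12863) had 2.05% of UMIs in members, whereas the other 1186 had 0.696%. In the sham library the 16 such cells (median 7257.5) had 1.01% and the other 288 had 0.796%. Without these cells the members' share was therefore lower in HIR, and the median log2 ratio was -0.19 in place of 0.23. By depth, HIR cells had the lower share at 500 to 1000 UMIs (0.816% and 0.605%), 1000 to 2000 (0.794% and 0.675%), 2000 to 4000 (0.724% and 0.678%) and 4000 to 8000 UMIs (0.943% and 0.722%), and the higher one at 8000 or more, where 4 sham and 74 HIR cells had 1.11% and 1.94%. The neutrophil marker list was at 106728 CPM in the 63 HIR cells and 359089 CPM in the remaining HIR cells, and cytosolic ribosomal protein genes took 10.5% and 1.68% of their UMIs. The highest other marker list in the 63 cells was that of Vcan and Fn1 myeloid cells, at 4326 CPM. In the remaining HIR cells it was the alveolar type 2 list, at 4316 CPM. In the sham library the neutrophil marker list was at 371241 CPM in the 16 cells and 260949 CPM in the others, with 3.41% and 1.70% of UMIs in ribosomal protein genes. Camp and Ngp are granule genes of immature neutrophils. In the class as a whole they were at 9183 and 6756 CPM in sham and 1601 and 179 CPM in HIR. Camp was at 29229 CPM in the 16 sham cells and 444 CPM in the 63 HIR cells. The part of these values in the members' ratios was not tested.

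**Figure D5:**
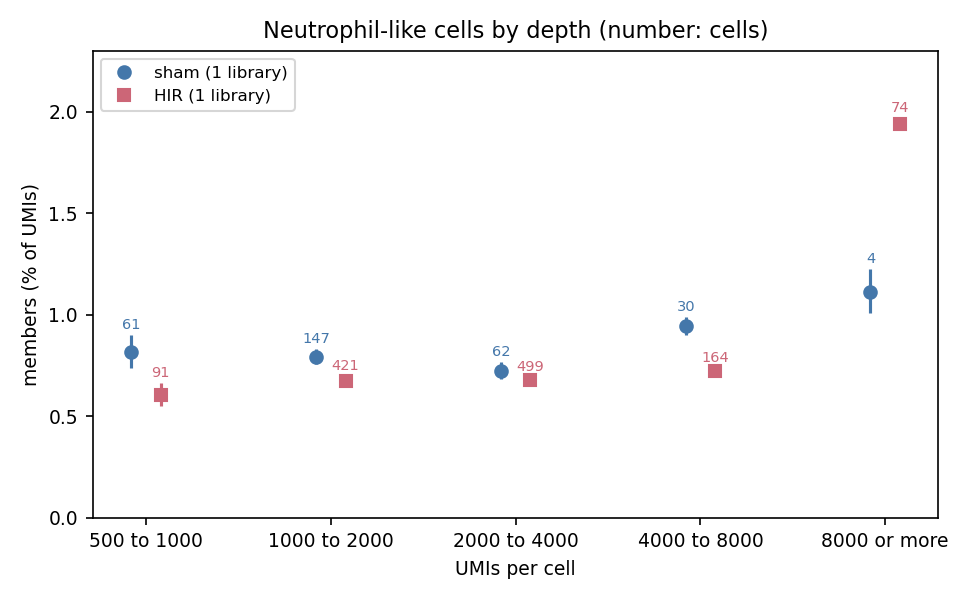
Members' share of UMIs (y axis, percent) in neutrophil-like cells by UMIs per cell (x axis), sham (circles) and HIR (squares), with exact 95% binomial intervals as bars and the number of cells beside each point. HIR lies below sham in the 4 lower ranges and above it at 8000 UMIs or more (1.11% and 1.94%).

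Single members of neutrophil-like cells depended on these cells to different degrees. Atp5mc1, a c-ring gene, was at 17.5 and 84.4 CPM (11 and 332 UMIs; ratio 4.82, 2.66 to 9.76), and 257 of the 332 HIR UMIs were in those 63 cells. In the remaining cells it was at 17.8 and 24.4 CPM. Ndufa11 was at 15.9 and 62.2 CPM (3.92, 2.09 to 8.27), Cox7b at 25.4 and 71.4 CPM (2.81, 1.70 to 4.98), Ndufa5 at 38.1 and 95.0 CPM (2.49, 1.65 to 3.94) and Atp5mc3 at 35.0 and 85.9 CPM (2.46, 1.60 to 3.97). Atp5mc1, Ndufa11, Ndufa12 and Ndufab1, among the 19 members past the fold higher, reached 20 CPM in the HIR library only. In all, 6 of the measured members of this class reached 20 CPM in 1 library only. Without the cells of most UMIs the log2 ratio was 0.46 for Atp5mc1, 0.14 for Cox7b and 0.52 for Ndufa5, but it was still 1.28 for Ndufa11. The 2 members past 1.5-fold lower were accessory subunits of complex I, Ndufa8 at 184 and 94.3 CPM (0.511, 0.414 to 0.635) and Ndufb4 at 63.6 and 40.4 CPM (0.635, 0.447 to 0.923). In this class 17 of the 73 measured members were below a ratio of 1, against 48.2% of all measured genes.

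In Vcan and Fn1 myeloid cells (141 and 337 cells) 62 of 77 measured members were above a ratio of 1, and 12 of 12 in complex IV. Of all genes measured in the class, 52.6% were below a ratio of 1. Ndufaf7 led, with Ndufc1 at a ratio of 1.69 and Ndufb8 at 230 and 372 CPM (1.62, 1.41 to 1.86). The Ndufa10l1 gene ENSRNOG00000016470 was the member past 1.5-fold lower, at 59.9 and 27.1 CPM. The median of 0.25 was 0.03 among cells of 1000 to 10000 UMIs and -0.01 among the 34 sham and 26 HIR cells without a UMI of S100a8 or S100a9. RNA of the neutrophil list was at 1902 and 15372 CPM in this class, and median UMIs per cell were 7570 and 9325.

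The 18 members measured in no class were not compared. Of these, 5 had no UMI in any compared class: Cox7b2, Cox8c, Ndufa1, Sdhaf1 and a Ndufa10l1 gene. Ndufs1, the largest iron-sulfur subunit of complex I, stayed under the minimum of 20 CPM, with 13.2 and 16.1 CPM in alveolar macrophage-like cells from 101 and 116 UMIs (1.22, 0.929 to 1.61), and Ndufs6 reached 4.04 CPM at most. Cox6b1, Ndufv3 and Uqcrb stand under more than 1 identifier, Cox6c has a pseudogene in the table, and reads of such near-identical copies may have been split between them.

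Genes that work beside the members were counted in 9 lists. The 13 genes of mitochondrial DNA, whose products join the same complexes, did not share the members' direction everywhere: 10 of 13 were above a ratio of 1 in alveolar type 1 epithelium-like cells (median log2 ratio 0.11), while 12 of 13 were below it in the Lum and Wnt11 stroma (-0.17) and 11 of 13 in the adventitial fibroblast-like class (-0.15). Mitochondrial ribosomal protein genes were lower in all 3, with 36 of 45 measured below a ratio of 1 in alveolar type 1 epithelium-like cells (-0.24), 45 of 65 in the Lum and Wnt11 stroma (-0.11) and 47 of 61 in the adventitial fibroblast-like class (-0.20). Cytosolic ribosomal protein genes were above a ratio of 1 in 59 of 71, 51 of 83 and 64 of 79 cases. Import machinery genes had 8 of 9, 10 of 17 and 15 of 17 below a ratio of 1, and assembly genes of complexes III and IV outside the members 4 of 6, 7 of 10 and 6 of 9. Electron carrier genes had 5 of 5, 4 of 9 and 5 of 7 below, citric acid cycle genes 3 of 10, 7 of 11 and 5 of 10, hypoxia response genes 2 of 4, 3 of 5 and 4 of 6, and regulators of mitochondrial biogenesis 1 of 1, 1 of 4 and 2 of 4. In neutrophil-like cells 70 of 73 measured cytosolic ribosomal protein genes and 13 of 13 mitochondria-encoded genes were above a ratio of 1, beside 56 of 73 members.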

How the data were processed

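Droplet single-cell RNA sequencing (10x Genomics) was done on enzymatically digested, red-cell-lysed mouse lung, with 1 sham and 1 HIR library. The deposited matrices hold raw UMI counts per gene and barcode. The submitters' processing notes name Cell Ranger 6.0, STAR, Seurat 4.0 and mm10, and, per the file headers, cellranger 5.0.0 produced the matrices. The feature identifiers are those of rat in Ensembl although the labels name mouse, and symbols were read as rat symbols. This was not resolved, and its part in the level of any gene was not tested.

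Kept were 9438 sham and 8593 HIR barcodes, those with 200 or more genes and no more than 20% mitochondria-encoded UMIs. A cell was placed in a lineage by at least 3 of its listed markers, with any other lineage at no more than 50% of that share, and in a class by at least 2 class markers. Erythroid markers counted only in cells with 20% or more of UMIs in them, and S100a8 and S100a9 counted as neutrophil markers only where they held 5% or more of a cell's UMIs. This placed 77.4% and 76.6% of kept cells. No doublet caller was run. The gate left out barcodes with another lineage above that 50% limit, and mixtures below it could pass. Mixtures within a lineage were left out only where classes tied. An alternative left out the 5% of cells with most UMIs. For classes with 100 or more cells in each library, the UMIs of a gene were added up over the cells and given as CPM. Ratios carry exact 95% intervals from the UMI counts. The ratio and interval code was tested on simulated Poisson counts of class sums, which hold no differences between cells. Python 3.11.15, numpy 2.4.6, scipy 1.17.1, pandas 2.3.3 and matplotlib 3.10.9 were used.

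The members, the marker and gene lists and the alternatives were chosen with earlier results of these data known. The rules for erythroid genes, S100a8 and S100a9, the rat spellings of listed symbols and 3 alternatives were chosen after seeing the data. Named were the 3 members with the highest mean CPM per complex, members past 1.5-fold one way in at least 25% of their classes, the 5 highest and 5 lowest medians, restricted isoforms, Atp5if1 and the catalytic members. Other members were named after their values were seen, for being past 1.5-fold in a class described, for their sign in most classes or as partners of those named. A catalytic member that the rule names is not reported here.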

Additional observations from a re-analysis of the deposited data

Results flagged for a closer look

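Under the main settings the members as a group had opposite directions in 2 sets of classes. The median log2 ratio of HIR over sham was -0.28 in alveolar type 1 epithelium-like cells, -0.27 in the Lum and Wnt11 stroma and -0.26 in adventitial fibroblast-like cells, against 0.25 in Vcan and Fn1 myeloid cells and 0.23 in neutrophil-like cells. The higher set did not hold under other settings: among cells of 1000 to 10000 UMIs its medians were 0.03 and -0.23. The 3 lower classes share their sign with most others, since the median was below 0 in 11 of 15. The median of all measured genes was also below 0 in part of the classes. It ran from -0.04 in NK cell-like cells to 0.12 in alveolar type 2 epithelium-like cells. The difference between the sets was not tested, since each group has 1 library. Among alveolar type 1 epithelium-like cells with under 1% of UMIs in the alveolar type 2 marker list the median was -0.30. That list was at 32575 and 19182 CPM in the class as a whole.

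A signal also appeared in classes that were too small to compare. Ndufa4l2 was at 1480 CPM in pericyte-like cells of the sham library, and Cox8b at 251 CPM in alveolar fibroblast-like cells of the sham library. Both genes were lower in the same classes of the HIR library, at 710 and 103 CPM, from 11 and 78 cells.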

How the results depend on the processing

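The negative medians of alveolar type 1 epithelium-like cells (-0.35 to -0.26 over 11 alternatives), the Lum and Wnt11 stroma (-0.33 to -0.26 over 12), adventitial fibroblast-like (-0.28 to -0.24 over 13) and smooth muscle or myofibroblast-like cells (-0.23 to -0.16 over 13) moved by less than their interval. So did the medians of general capillary (-0.089 to -0.056 over 13), aerocyte (-0.073 to -0.024 over 13) and venous endothelium-like cells (-0.19 to -0.11 over 12). In each other class at least 1 alternative moved or reversed the median, and the cause was not tested. Signs reversed in neutrophil-like cells (-0.23 among cells of 1000 to 10000 UMIs, -0.19 without the 5% of cells with most UMIs, -0.093 as a mean over cells), alveolar type 2 epithelium-like cells (-0.078 with the class set by summed marker level, -0.0041 without the 5%, -0.078 centred on all genes) and interstitial macrophage-like cells (0.020 by marker level). An alternative chosen after seeing the data reversed Vcan and Fn1 myeloid cells (-0.0078 without S100a8 or S100a9 UMIs), and another moved neutrophil-like cells to 0.87 (without Camp or Ngp UMIs, 146 and 433 cells). Medians also moved in B cell-like cells (-0.13 by marker level, -0.16 at 10% mitochondrial UMIs, -0.032 at 1000 to 10000 UMIs, -0.026 without the 5%, -0.00055 as a mean over cells), T cell-like cells (-0.0054 at 1000 to 10000 UMIs, -0.11 centred), interstitial macrophage-like cells (-0.022 at 1000 to 10000 UMIs and, as a mean over cells, -0.045), Vcan and Fn1 myeloid cells (0.032 at 1000 to 10000 UMIs), NK cell-like cells (-0.19 without the 5%), alveolar type 2 epithelium-like cells (0.074 without mitochondrial, ribosomal and hemoglobin genes in CPM) and alveolar macrophage-like cells (0.045 centred). The classes with a median above 0 were 1 at 1000 to 10000 UMIs and 2 without the 5%.

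The 50 lower pairs became 31 with 1 marker more, 78 with 1 fewer, 81 by marker level, 77 as a mean over cells, 31 at 100 CPM and 96 without a minimum. The 28 higher pairs became 11 at 1000 to 10000 UMIs, 14 without the 5%, 12 as a mean over cells, 10 at 100 CPM and 62 without a minimum. The 7 classes with Ndufaf8 past 1.5-fold lower became 5 with 1 marker more and 5 at 1000 to 10000 UMIs, and 7 or 8 under the others that gave a value. Ndufaf8 is under 100 CPM in every class and drops out at that minimum. Under some alternatives a class fell below 100 cells and gave no value. No paired analysis was possible because each group has 1 library. Genes under 50 UMIs were not compared.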
